A study of Mus musculus with 4 samples.

Results

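Dppa2, Dppa3, Dppa4 and Dppa5a are 4 of the developmental pluripotency-associated genes, a set named for transcripts shared by early embryos and pluripotent cells rather than for common ancestry. They were taken as every probe set of the deposited table whose only gene symbol is one of these names, which gave 7 of 21789 such probe sets. Averaged per gene, they are 4 of 19938 genes measured. All 4 were present, and no filter on low values was applied.

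DPPA2 and DPPA4 are nuclear proteins with a SAP domain, a DNA-binding motif, and they bind each other. In mouse embryonic stem cells they keep the promoters of many developmental genes from gaining DNA methylation, and they act upstream of the early cleavage-stage programme driven by Dux. DPPA3, also called Stella or PGC7, is a maternal protein that protects the zygote's maternal genome from demethylation and limits DNA methylation by binding UHRF1. DPPA5A, also called ESG1, is a KH-domain protein that binds RNA and marks cells of the early embryo, embryonic stem cells and germ cells.

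Total RNA of 4 cultures was hybridised to 1 Affymetrix array each. The induced pluripotent stem (iPS) lines 492B4 and 178B5 and the mouse embryonic fibroblasts (MEF) came from mixed stock (DBA/2, C57BL/6, 129S4), whereas the embryonic stem (ES) line v6.5 was an F1 of 129 and C57BL/6. The 3 pluripotent lines grew in serum-containing medium on a feeder layer of mitomycin-C-treated SNL cells carrying puromycin resistance, and MEF grew in a serum medium for which no feeder layer is described. The labels do not say which cells or factors gave the iPS lines, and each line and the MEF culture is 1 sample. Strain therefore cannot be told apart from cell state where ES is compared, whereas the iPS lines and MEF are labelled with the same mixed stock. Medium and feeder layer cannot be told apart from cell state in any comparison with MEF. The separate lines stood as replicates, so every p-value measures the spread between these arrays only.

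The deposited values, taken as log2, give each array's difference from the median of the 4 arrays for that probe set. They hold differences between arrays and no levels, so it cannot be read from them whether a Dppa transcript was above background in MEF, or which of the 4 genes was most abundant. On all arrays together, the fibroblast list had a median of -0.94 in iPS 492B4, -0.81 in iPS 178B5, 0.78 in ES and 3.09 in MEF, and the naive-state list had medians of 0.01, 0.04, 0.19 and -4.11 in the same arrays. On these lists the markers followed the split between MEF and the pluripotent lines. Fibroblast transcripts were higher in ES than in the mean of the iPS lines for 18 of 19 genes. Primitive endoderm transcripts were higher in the mean of the iPS lines than in ES for 14 of 15 genes. Other lists also leaned to 1 side, as given below, and the median of all genes was -0.06 log2 for iPS minus ES. Precision is limited by the number of arrays.

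All 4 Dppa genes were far higher in the pluripotent lines than in MEF, by 3.01 to 8.06 log2, and were called by limma's test for the lines against MEF. Calls required an adjusted p below 0.05 together with at least 1 log2 of difference, and 7.9% of all genes were called higher by that rule. The median of the 4 was 5.01 log2, against -0.10 log2 over all 19938 genes. MEF was the lowest of the 4 arrays for each of the 7 probe sets, and in no probe set did the MEF value come near those of the lines. In whole-culture RNA, fewer cells of a type and less RNA per cell cannot be told apart.

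**Figure D1:**
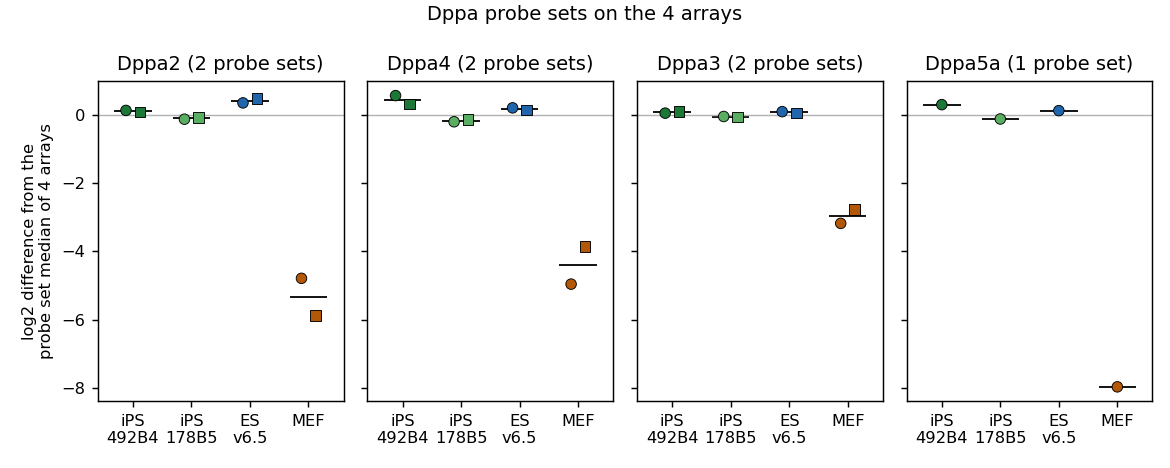
Each point is a probe set of Dppa2, Dppa4, Dppa3 or Dppa5a on one array (x axis: iPS 492B4, iPS 178B5, ES v6.5, MEF); the y axis is the log2 difference from that probe set's median over the 4 arrays, circles and squares are the probe sets of a gene, and lines are their mean. The pluripotent lines sit between -0.20 and 0.56, and MEF between -7.96 and -2.77.

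Dppa2, the partner of Dppa4, had values of 0.10 in iPS 492B4, -0.10 in iPS 178B5 and 0.42 in ES, against -5.33 in MEF. The lines lay within 0.52 log2 of each other, and none came near MEF. The difference between lines and MEF was 5.47 ± 0.26 log2 (SD over lines, n = 3), about 44.4-fold with a 95% interval of 28.3 to 69.7 (limma adjusted p = 0.00479). It was the 17th largest rise of all genes.

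Dppa4 had values of 0.44 in iPS 492B4, -0.17 in iPS 178B5 and 0.17 in ES, against -4.41 in MEF. It had the widest spread of the 4 genes over the lines, 0.61 log2, with iPS 178B5 low and iPS 492B4 high. The lines exceeded MEF by 4.55 ± 0.31 log2 (SD, n = 3), about 23.5-fold with a 95% interval of 14.1 to 39.0 (limma adjusted p = 0.00548). This ranked 43 among the rises.

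Dppa3, the maternal and germ cell factor, had the smallest difference of the 4 and the tightest lines. Its values were 0.07 in iPS 492B4, -0.05 in iPS 178B5 and 0.08 in ES, against -2.97 in MEF. The difference of 3.01 ± 0.07 log2 (SD, n = 3) was about 8.03-fold with a 95% interval of 6.14 to 10.5 (limma adjusted p = 0.00479), and it ranked 167 among the rises. The spread of Dppa3 over the lines was lower than those of Dppa2, Dppa4 and Dppa5a, which stood at the 75.6, 81.5 and 65.9 percentile of all genes.

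Dppa5a, read by 1 probe set, had the largest rise of all 19938 genes. The values were 0.30 in iPS 492B4, -0.12 in iPS 178B5 and 0.12 in ES, against -7.96 in MEF, the lowest MEF value of any probe set with a single symbol. The lines exceeded MEF by 8.06 ± 0.21 log2 (SD, n = 3), about 267-fold with a 95% interval of 180 to 395 (limma adjusted p = 0.00211). The next largest rise of any gene, 7.22 log2, was 0.85 log2 smaller. That lead is below the 1.14 and 1.18 log2 that separated the probe sets of Dppa2 and of Dppa4.

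**Figure D2:**
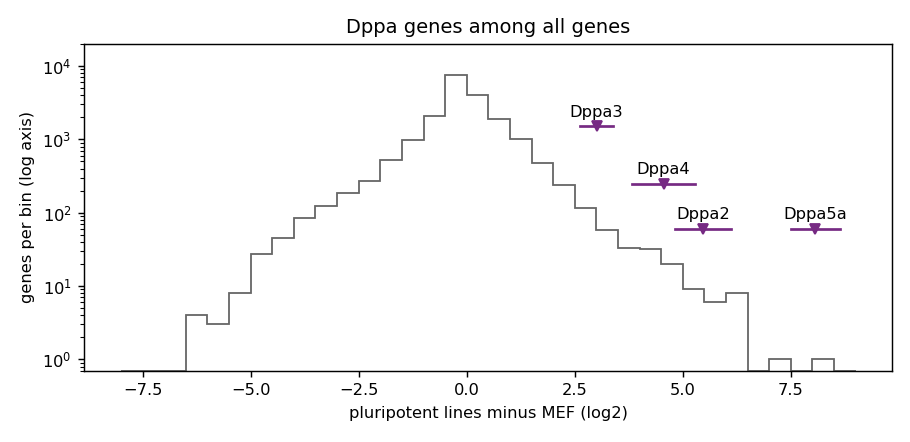
The grey outline counts all 19938 genes by their difference between pluripotent lines and MEF (x axis, log2, bins of 0.5) on a logarithmic y axis; purple triangles place the 4 Dppa genes with their 95% intervals at heights chosen only for legibility. Dppa3 stands at 3.01, Dppa4 at 4.55, Dppa2 at 5.47 and Dppa5a at 8.06, the largest value of all.

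The 4 calls against MEF held under every alternative fit tried. Leaving out any 1 line left differences of 5.33 to 5.59 log2 for Dppa2, 4.41 to 4.71 for Dppa4, 2.98 to 3.05 for Dppa3 and 7.96 to 8.17 for Dppa5a. Each gene was still called, with limma adjusted p of 0.0388 for all 4 without iPS 178B5, where the number of genes called over the whole array was 1357, against 3512 (17.6%) with all lines. With the arrays centred on reference genes the differences were 5.24, 4.32, 2.77 and 7.83 log2 for Dppa2, Dppa4, Dppa3 and Dppa5a. Under that centring the median of all genes was -0.33 log2, against -0.10 as deposited, and the called genes split into 1140 higher and 2663 lower, against 1576 higher and 1936 lower. The 12 reference genes averaged for it were not constant. As deposited, 2 of them were called higher, with Tfrc at 2.77 log2, and 2 lower. Every later value with reference gene centring carries this limit.

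Dppa2, Dppa3 and Dppa4 each had 2 probe sets, which the platform annotation pairs with the same RefSeq transcripts. For Dppa2 the lines exceeded MEF by 4.90 log2 in probe set 10436053 and by 6.04 log2 in probe set 10463138. For Dppa4 the differences were 5.14 log2 in probe set 10436050 and 3.96 log2 in probe set 10486954. For Dppa3 they were 3.21 log2 in probe set 10541515 and 2.80 log2 in probe set 10604135. Fitted by itself, each of these probe sets was called, with limma adjusted p between 0.0041 and 0.00463.

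The size of the rise therefore depended on the probe set for Dppa2 and Dppa4, by 1.14 and 1.18 log2. Among the 999 genes with several probe sets the median gap was 0.20 log2, and among the 91 of them with a probe set at least 2 log2 from MEF it was 0.95 log2. For Dppa3 the gap was 0.40 log2. The RefSeq gene table lists pseudogenes named Dppa3-ps, Dppa5b and Dppa5c, and the sequences the probe sets read were not used here, so signal from near-identical copies was not separated. Dppa1, the other gene on the array with a Dppa name, was looked at after these values were seen. It had values of -0.01 in iPS 492B4, -0.06 in iPS 178B5 and 0.08 in ES, against 0.01 in MEF (difference -0.01 log2, 95% interval -0.39 to 0.38, limma adjusted p = 0.981).

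Taking the pluripotent cell types one at a time, iPS lines and ES cells were each set against the same MEF array in a fit with 3 groups. The background was 9.94% of genes called higher for iPS and 9.14% for ES. In iPS against MEF, Dppa2 was higher by 5.33 log2, Dppa4 by 4.54, Dppa3 by 2.98 and Dppa5a by 8.05, with limma adjusted p of 0.00187 to 0.00312. In ES against MEF, Dppa2 was higher by 5.75 log2, Dppa4 by 4.58, Dppa3 by 3.05 and Dppa5a by 8.08, with adjusted p of 0.00581 to 0.00699. All 4 were called in each comparison, and the comparisons share their MEF array.

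The comparison of iPS lines with ES cells asks whether reprogrammed cells hold these transcripts as an embryo-derived line does. None of the 4 was called, and limma called 0 of 19938 genes (0%), with 3079 at an unadjusted p under 0.05. The spread in this fit came from the iPS lines alone, so the lack of calls does not show that iPS and ES were alike. The count was 44 with equal array medians and 13 with reference gene centring, no Dppa gene among them. Dppa3 differed by -0.07 log2 with a 95% interval of -0.48 to 0.34 (adjusted p = 0.857), and Dppa5a by -0.03 log2 with an interval of -0.67 to 0.60 (adjusted p = 0.958). Dppa4 differed by -0.04 log2 with an interval of -0.86 to 0.79 (adjusted p = 0.967). The signs of Dppa4 and Dppa5a turned with equal array medians, to 5.17e-05 and 0.0010 log2.

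Dppa2 was the gene with the largest gap. Its values of 0.10 in iPS 492B4 and -0.10 in iPS 178B5 were both below 0.42 in ES, a difference of -0.42 log2 with an interval of -0.87 to 0.04 (limma adjusted p = 0.35). The intervals thus leave room for an iPS level between 0.548 and 1.03 times that of ES for Dppa2, and between 0.719 and 1.27 times for Dppa3. For Dppa4 and Dppa5a the iPS lines fell on opposite sides of ES: iPS 492B4 was 0.27 and 0.18 log2 above it, and iPS 178B5 was 0.34 and 0.24 log2 below it.

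**Figure D3:**
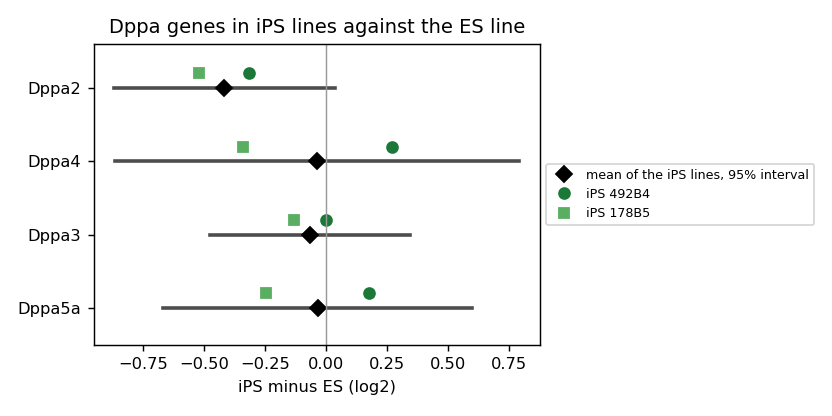
For each Dppa gene, the black diamond is the mean of the iPS lines minus ES (x axis, log2) with its 95% interval from limma, and the green circle and square are iPS 492B4 and iPS 178B5 minus ES. The intervals all cross 0, and the mean difference is -0.42 for Dppa2 and between -0.07 and -0.03 for the other genes as deposited, with Dppa4 and Dppa5a just above 0 when array medians are set equal.

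Markers of other cells moved with this comparison. In the mean of the iPS lines minus ES, 18 of 19 fibroblast genes were below 0, with a median of -1.65 log2, and 14 of 15 primitive endoderm genes were above 0, with a median of 1.57 log2. The median of all genes was -0.06 log2. Other lists leaned to 1 side as well, with smaller medians. Below 0 were 9 of 10 trophoblast (-0.35), 11 of 15 primed-state (-0.37) and 11 of 14 naive-state genes (-0.16). Above 0 were 22 of 28 germ cell genes (0.36), and the reference genes split into 6 and 6. The fibroblast genes ranged from -2.42 to 0.23 in iPS 492B4, from -1.73 to 0.07 in iPS 178B5 and from -0.79 to 1.73 in ES. The primitive endoderm genes ranged from -0.41 to 2.08, from 0.01 to 2.02 and from -1.79 to 0.11 in these arrays. Without levels it cannot be said which of these markers were at background, and their part in the Dppa values was not tested.

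Between the iPS lines, each with 1 array and therefore without a test, 492B4 was above 178B5 for all 4 genes. The difference was 0.61 log2 for Dppa4, about 1.53-fold, 0.42 for Dppa5a, 0.20 for Dppa2 and 0.13 for Dppa3. Over all genes the median difference was -0.02 log2 and the median size 0.14 log2, and 0.612% of genes differed by at least 1 log2, none of them a Dppa gene. Among the signed differences of all genes, Dppa4 stood at the 98.0 percentile, Dppa5a at the 94.4, Dppa2 at the 83.3 and Dppa3 at the 75.3 percentile.

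iPS 178B5 was the lowest of the 3 lines for each of the 4 Dppa genes, and in 7 of 7 probe sets. Dppa2, Dppa3 and Dppa4 have 2 probe sets each, so the probe sets are not separate observations. The shares that follow count genes. Among the 1576 genes called higher in the lines, 35.03% were lowest in iPS 178B5, as were 26.8% of all genes. The highest line was ES in 3 probe sets, those of Dppa2 and one of Dppa3, and iPS 492B4 in the other 4. With 1 array per line, the gaps between neighbouring lines have no error of their own.

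The genes beside each Dppa gene were read in the order of the mouse gene table (GRCm38.p6), taking the 3 nearest measured genes on each side. Of 18 such neighbours, 7 rose in the lines and 2 fell relative to MEF, and 9 were not called, beside 7.9% called higher and 9.71% called lower of all genes. The count called higher was 7 under each alternative fit as well. Without iPS 178B5, 0 were called lower, as Mfap5 and Foxj2 then had limma adjusted p of 0.065 and 0.118. The median neighbour differed by 0.05 log2, and by -0.18 log2 with reference gene centring.

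On chromosome 16, Dppa4 and Dppa2 lie next to each other, followed by Morc1, which encodes an ATPase that silences transposons in male germ cells. Morc1 had values of -0.05 in iPS 492B4, 0.05 in iPS 178B5 and 0.36 in ES, against -3.66 in MEF, a rise of 3.78 ± 0.21 log2 (SD, n = 3, limma adjusted p = 0.00548). The genes flanking this trio were not called: 6430553K19Rik at 0.01 log2 and Nectin3 at -0.18 log2 on the Dppa4 side, and Trat1 at 0.04 log2 and Retnlb at 0.06 log2 on the Morc1 side. Cd96, further out, stood at -0.20 log2. The large differences were thus held by 3 consecutive measured genes.

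On chromosome 6, Dppa3 lies between Gdf3, a TGF-beta family ligand, and the pluripotency factor gene Nanog, with the glucose transporter gene Slc2a3 beyond. In the lines, Gdf3 rose by 3.82 log2, Nanog by 6.00 log2 and Slc2a3 by 4.43 log2, so Dppa3 had the smallest rise of these 4 consecutive measured genes. Further out, the RNA-editing deaminase gene Apobec1 stood at 1.15 log2 (adjusted p = 0.198). Mfap5, a microfibril gene, and Foxj2 fell by 3.92 and 1.04 log2, though Foxj2 stood at -0.99 log2 and was not called with equal array medians, nor without ES at -0.92 log2.

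On chromosome 9, Dppa5a is followed by Ooep, another KH-domain gene and a member of the oocyte's subcortical maternal complex, and by the helicase gene Ddx43. Ooep had values of 0.49 in iPS 492B4, -0.04 in iPS 178B5 and 0.04 in ES, against -4.16 in MEF. It rose by 4.32 log2 and Ddx43 rose by 2.25 log2. Omt2b and Omt2a on the other side stood at -0.10 and -0.14 log2 and were not called, Gsta4 beyond them rose by 3.21 log2, and the DNA sensor gene Cgas stood at -0.52 log2 (adjusted p = 0.0784).

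**Figure D4:**
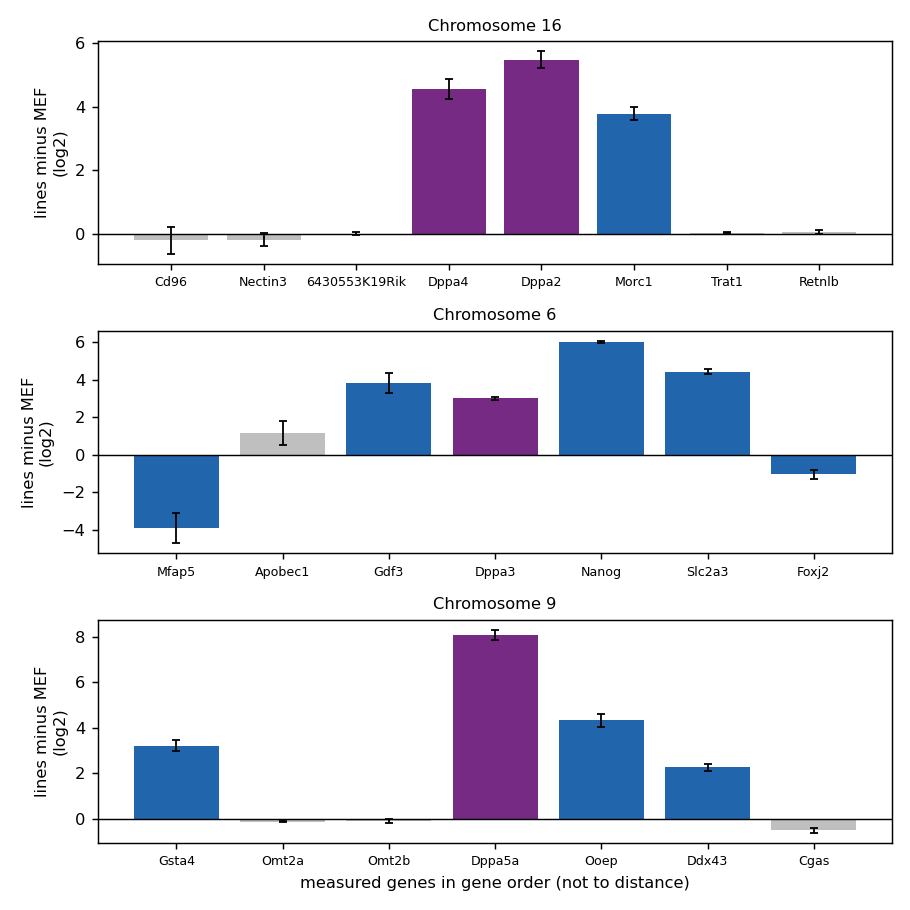
Bars give the difference between pluripotent lines and MEF (y axis, log2) for measured genes in chromosome order around the Dppa genes on chromosomes 16, 6 and 9; error bars are the SD over 3 lines, purple marks Dppa genes, blue other called genes and grey genes not called. Dppa4, Dppa2 and Morc1 stand out from flanks that were not called. On chromosome 6 the genes from Gdf3 to Slc2a3 rose, while Mfap5 at -3.92 and Foxj2 at -1.04 fell. On chromosome 9 the genes from Dppa5a to Ddx43 rose, as did Gsta4, at 3.21 against 2.25 for Ddx43.

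Likeness of pattern was measured as the root mean square difference over the 4 arrays, which share the same centring and the same MEF array. For Dppa2 the nearest genes were Fbxo15, a target of OCT4 used as a reprogramming reporter, at 0.14 log2, then Phlda2 at 0.20 and Esrrb at 0.22. Dppa3 was nearest to Zfp600 at 0.02 log2, Reep6 at 0.04 and Jarid2, a Polycomb subunit, at 0.06. Dppa4 was nearest to Slc35f2 at 0.14 log2, Gpa33 at 0.16 and Ooep at 0.16. Dppa5a had no close match, with Tdgf1, a Nodal co-receptor, at 0.41 log2, Bex1 at 0.85 and Pou5f1 at 0.86. The centring holds the lines near 0 for such genes, so the distance mostly follows the MEF value, which was the lowest of all genes for Dppa5a.

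Other genes linked to pluripotency by expression moved with the Dppa genes. The counts in this and the following lists stand beside 7.9% of all genes called higher and 9.71% called lower. In a list of reprogramming candidates, genes active in ES cells and mostly once screened for the power to reprogram fibroblasts, 14 of 20 rose, 0 fell and 6 were not called, with a median of 3.61 log2. Pou5f1, which encodes OCT4, rose by 6.30 log2, Sox2 by 6.18, Utf1 by 6.13 and Dnmt3l by 6.04, all smaller rises than that of Dppa5a and larger than that of Dppa2. Of 14 measured naive-state genes, 12 rose and 0 fell, with a median of 4.24 log2. Nr0b1 rose by 6.08, Nanog by 6.00 and Esrrb by 5.10 log2. The lists overlap, so their counts are not separate evidence. Nanog, Sox2, Zfp42, Tcl1 and Klf4 are in both of these, and Dnmt3a and Dnmt3b in the DNA methylation and primed-state lists. The candidates share Dnmt3l with the DNA methylation list and Khdc3 with the KH-domain list. Prdm14 is in the naive-state and germ cell lists, and Foxa2 in the primed-state and primitive endoderm lists. The neighbours Nanog, Gdf3 and Ooep are list members too. Without iPS 178B5 the counts were 12 for the candidates and 9 for the naive genes. That fit called 613 genes higher and 744 lower over the whole array, against 1576 and 1936 with all lines. All list counts without iPS 178B5 stand beside those smaller totals.

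The gene lists closest to known DPPA functions gave mixed counts. DPPA3's target UHRF1 and the DNA methylation machinery formed one list, in which 10 of 12 measured genes rose and 0 fell. Tet1, which oxidises methylcytosine, rose by 4.48 log2, the de novo methyltransferase gene Dnmt3b by 3.52, Hells by 3.42 and Uhrf1 by 2.22 log2. The list's median was 2.07 log2, and 7 rose with iPS 178B5 left out. With reference gene centring, 9 rose and 1, Tet3, fell by 1.27 log2.

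For DPPA2 and DPPA4, a list of chromatin partners and related complexes had 6 of 13 higher and 0 lower, with a median of 0.92 log2. Over all genes 7.9% were called higher and 9.71% lower. Pcgf6, of a variant Polycomb complex, rose by 2.60 log2, Suz12 by 2.20, Ash2l by 1.94 and Ezh2 by 1.53 log2. With iPS 178B5 left out 4 rose, and Suz12 had an adjusted p of 0.0839. In the 2-cell-like list, which holds genes tied to the embryo's 2-cell stage, 2 of 12 measured genes rose and 10 were not called, with a median of 0.50 log2. Gm5662 rose by 2.70 log2 and Tdpoz3 by 1.08 log2. The call of Tdpoz3 was lost without iPS 178B5 (adjusted p = 0.127), without iPS 492B4 (0.0803) or with reference gene centring (0.0601). The list names 29 genes, and Dux and the Zscan4 genes had no probe set of their own, so the programme was covered only in part.

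For Dppa5a, KH-domain relatives and the maternal complex had 2 of 8 higher and 1 lower, beside 7.9% and 9.71% of all genes. Their median was 0.12 log2, and -0.11 log2 with reference gene centring. Ooep rose as given above, and Khdc3, whose protein partners OOEP, rose by 2.15 log2. Without iPS 492B4 Khdc3 stood at 2.05 log2 and missed the call (adjusted p = 0.0678). Zbed3 fell by 1.29 log2, and stood at -1.30 log2 without the call when iPS 178B5 was left out (adjusted p = 0.0959). The other 5 were not called: Nlrp4f stood at 1.09 log2, Tle6 at 0.22, Khdc1a at 0.03, Nlrp5 at -0.10 and Padi6 at -0.29 log2. In the fit with 3 groups Nlrp4f was called, at 1.23 log2 (limma adjusted p = 0.0371).

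Among germ cell genes, the setting in which Dppa3 was first studied, 15 of 28 rose and 0 fell, with a median of 1.94 log2. Mael, of the piRNA pathway, rose by 5.21 log2, Tdrd12 by 5.0, Kit by 3.50 and Tfap2c by 3.33 log2. With iPS 178B5 left out 6 rose and Mael had an adjusted p of 0.0501, and without iPS 492B4 Kit had 0.0512. Genes called higher over the whole array fell from 1576 to 613 without iPS 178B5. Syce1, a meiotic gene described as a target of DPPA2 and DPPA4, rose by 2.62 log2 with an adjusted p of 0.0548 once iPS 178B5 was left out.

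Lists for other states and cell types completed the picture. In the primed-state list 7 of 15 rose, led by Otx2 at 4.88, Krt18 at 3.75, Dnmt3b at 3.52 and Lefty2 at 3.41 log2, and 2 fell, with a median of 1.61 log2. Without iPS 178B5 6 rose and 0 fell, since Cdh2 and Fgf5 had adjusted p of 0.079 and 0.131. Fgf5 was also not called without iPS 492B4 (0.0507) or with equal array medians (0.0505). Of 19 fibroblast genes 13 fell, among them Lox at -6.17, Col1a2 at -4.76, Col1a1 at -4.61 and Loxl1 at -4.31 log2, with a median of -3.43 log2. Of these, 3 were called with iPS 178B5 left out and 7 with iPS 492B4 left out, and Lox, Col1a2 and Loxl1 were called in neither fit. Over the whole array these fits called 744 and 1739 genes lower, against 1936 with all lines. Col1a1 missed the call without iPS 178B5 (adjusted p = 0.0923), as did Lox with equal array medians (0.0514). The count was 18 without ES.

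The next counts also stand beside 7.9% of all genes called higher and 9.71% called lower. Primitive endoderm genes had 0 of 15 higher and 1 lower, Pdgfra by 2.05 log2, with a median of 0.69 log2. Without ES 6 were higher, and without iPS 492B4 0 were lower. Trophoblast genes had 3 of 10 higher and 1 lower, with a median of 0.47 log2. Tfap2c, also counted in the germ cell list, stood at 3.33, Ascl2 at 2.34, Hand1 at 1.34 and Gata3 at -1.76 log2. Without iPS 178B5 the counts were 2 and 0, as Hand1 and Gata3 had adjusted p of 0.0532 and 0.105. Of 12 reference genes 2 rose, Tfrc by 2.77 and Tbp by 1.02 log2, and 2 fell, Gusb at -1.53 and B2m at -1.43 log2, with a median of 0.18 log2. Without iPS 178B5 1 rose and 1 fell, and Tbp was below the minimum difference with reference gene centring and without iPS 492B4.

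**Figure D5:**
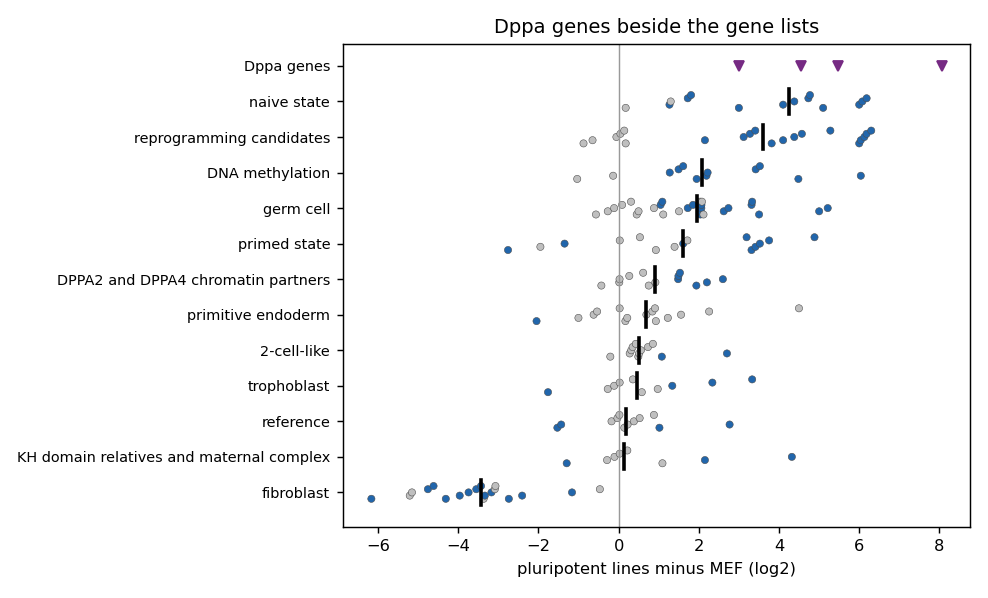
Each row is a gene list and each point one measured gene, placed by the difference between pluripotent lines and MEF (x axis, log2); blue points were called by limma, grey were not, black bars are list medians and purple triangles the 4 Dppa genes. The Dppa genes lie between 3.01 and 8.06, the naive-state median is 4.24 and the fibroblast median -3.43.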

How the data were processed

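The authors deposited 1 table of log2-scale values for 28853 probe sets on 4 arrays. Per the submitters' processing notes GCRMA, a method of background correction, normalization and probe summary, made them; its version and the log base are not given in the sources used here, and base 2 was assumed. Each probe set's median over the arrays was 0 within 5e-07, so the table holds differences only; array medians lay between -0.03 and 0.04. A filter on dim probes and a slide block could not be applied.

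Of the probe sets, 21789 had 1 symbol in the platform annotation, 1621 several and 5443 none; those with 1 were averaged per gene. Symbols of 21698 matched the GRCm38.p6 gene table. No Dppa gene matched the RefSeq promoter table (0 of 4), so no sequence is printed.

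Linear models used limma 3.58.1 (R 4.3.3, and Python 3.11.15 for the rest), tested on simulated data, with Benjamini-Hochberg adjustment over 19938 genes. The fit of the lines against MEF had 2 residual degrees of freedom from the 3 lines; the fit with 3 groups had 1, from the iPS lines. Lone arrays were assumed to vary like them. Quoted 95% intervals are limma's, unadjusted. Named were the members, up to 4 called genes per list with the largest differences, 3 nearest in pattern per member and 3 neighbours per side; other list genes named were chosen after their values were seen. Members and lists were chosen with earlier results of these data known.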

Additional observations from a re-analysis of the deposited data

How the results depend on the processing

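Every Dppa gene kept its direction and its call against MEF, for the lines together, iPS and ES, under all alternatives that gave a test: equal array medians, reference gene centring, median of probe sets, robust moderation, no minimum difference, genes with 1 probe set, another grouping or spread, and leaving out each line. Each probe set by itself, added after seeing the data and run for the lines together against MEF only, kept direction and call there. Adjusted p for the lines against MEF ranged from 0.00187 to 0.0388. Leaving out 1 line gave 1357 to 4216 genes called against MEF over the whole array, against 3512. For iPS against MEF 6627 genes were called with no minimum difference, against 4216, and for ES against MEF 2654 with the spread of the 2-group fit, against 3990. For iPS against ES 44 genes were called with equal array medians and 13 with reference gene centring, against 0; the cause was not tested, and no Dppa gene was among them. With equal array medians the iPS minus ES difference turned to 5.17e-05 log2 for Dppa4 and 0.0010 for Dppa5a. Leaving out an iPS line gave -0.34 to 0.27 log2 for Dppa4 and -0.24 to 0.18 for Dppa5a, as values with no test. Probe brightness over background is not in the table, so what low signal limits in MEF is unknown. No paired analysis was possible because the labels number no replicates across groups.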
